A study of Mus musculus with 7 samples.

Results

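The integrin and laminin subunits were taken as all probes whose platform gene symbol names an integrin alpha or beta subunit or a laminin alpha, beta or gamma chain. This selected 81 of the 45128 probes, for 25 integrin and 9 laminin genes. Of these, 46 probes of 29 genes (21 integrin and 8 laminin genes) were above background on at least 3 of the 7 arrays and were tested. Some subunit genes, Itga10 and Lama3 among them, were not analysed here.

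The samples were NPK prostate tumours of the mouse, carried as allografts by athymic nude hosts of strain NU/J. All 7 tumours were of this NPK model, so no untransformed prostate was part of the comparison. The vehicle group held 3 tumours and the RAPPD group 4, treated daily for 5 days and harvested on the last of these. The labels do not spell out RAPPD, which in published work on this model is rapamycin, an mTOR inhibitor, combined with an inhibitor of the kinase MEK. Nude mice lack a thymus and hence most T cells, and keep granulocytes and macrophages. The stroma, vessels and leukocytes of an allograft come at least in part from the mouse host, and mouse probes do not tell them from tumour cells. In such bulk RNA, fewer cells of a type and less RNA per cell cannot be told apart.

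Integrins are receptors made of 1 alpha and 1 beta chain that span the cell membrane and tie the cytoskeleton to matrix proteins or to ligands on other cells. The alpha chain largely sets which ligand is bound. Laminins are trimers of 1 alpha, 1 beta and 1 gamma chain and form the network of the basement membrane on which epithelium sits. Epithelial cells attach to it through laminin receptors, among which the pair of Itga6 and Itgb4 nucleates the hemidesmosome. Leukocytes use their own set, in which the beta chain Itgb2 (CD18) pairs with Itgal (CD11a), Itgam (CD11b, abundant on neutrophils and macrophages) or Itgax (CD11c).

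In the comparison over all arrays (limma, adjusted p under 0.05), Itga11, Itgav and Itgb8 were called higher in RAPPD tumours. Itga2, Itga5 and Itga6 were called lower. The rise of Itgav held for some of its probes and not for others. With array chip as a random block, Itga11 and Itgav were not called. Which of all these genes were called also depended on single arrays. Promoter sequences of 300 bases, from 250 before to 50 after the start, are shown for the 5 of these genes that the RefSeq promoter table (GRCm38.p6) holds, and for Itgam as the leukocyte subunit set against them. It held promoters for 22 of the 34 genes, and Itga6 was not among them. The Itgav window lies inside the annotated gene, at a later start than the first one annotated, and the other 5 lie at the outermost start of their gene. Capitals mark GAGGAA, a core bound by the myeloid factor PU.1, and GGGCGG, the SP1 box, on either strand. The AP-1 site TGANTCA and the ETS site CCGGAA were searched in the same way and matched 0 times in these 6 sequences. No matches overlapped each other.
Itga11, chr9:62677605-62677904, plus strand: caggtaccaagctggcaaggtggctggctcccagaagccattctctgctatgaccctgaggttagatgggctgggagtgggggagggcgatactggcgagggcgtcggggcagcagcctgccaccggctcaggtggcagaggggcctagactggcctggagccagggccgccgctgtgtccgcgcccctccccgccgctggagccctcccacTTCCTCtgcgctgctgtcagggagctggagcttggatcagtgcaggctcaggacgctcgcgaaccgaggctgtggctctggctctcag
Itgav, chr2:83724147-83724446, plus strand: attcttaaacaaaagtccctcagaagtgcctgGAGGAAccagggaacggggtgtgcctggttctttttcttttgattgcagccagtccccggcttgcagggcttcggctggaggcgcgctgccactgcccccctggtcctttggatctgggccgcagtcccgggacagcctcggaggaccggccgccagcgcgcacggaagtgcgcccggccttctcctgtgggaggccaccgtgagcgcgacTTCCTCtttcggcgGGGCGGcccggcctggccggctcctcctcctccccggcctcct
Itgb8, chr12:119238227-119238526, minus strand: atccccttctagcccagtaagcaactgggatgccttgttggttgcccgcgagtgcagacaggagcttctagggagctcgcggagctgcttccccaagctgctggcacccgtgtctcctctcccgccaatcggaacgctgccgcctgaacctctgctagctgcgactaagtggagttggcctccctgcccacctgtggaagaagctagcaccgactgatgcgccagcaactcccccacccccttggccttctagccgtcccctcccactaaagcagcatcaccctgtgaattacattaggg
Itga2, chr13:114932051-114932350, minus strand: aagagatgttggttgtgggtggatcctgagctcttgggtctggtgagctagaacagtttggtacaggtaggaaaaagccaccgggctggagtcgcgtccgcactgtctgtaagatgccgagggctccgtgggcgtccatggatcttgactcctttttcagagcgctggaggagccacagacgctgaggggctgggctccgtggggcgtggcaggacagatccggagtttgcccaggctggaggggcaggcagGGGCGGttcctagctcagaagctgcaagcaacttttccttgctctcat
Itga5, chr15:103366742-103367041, minus strand: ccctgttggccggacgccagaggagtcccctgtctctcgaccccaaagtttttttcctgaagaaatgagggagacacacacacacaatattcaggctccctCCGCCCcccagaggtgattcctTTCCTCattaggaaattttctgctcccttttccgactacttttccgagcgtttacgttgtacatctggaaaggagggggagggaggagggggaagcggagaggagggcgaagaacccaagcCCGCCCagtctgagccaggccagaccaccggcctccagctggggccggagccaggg
Itgam, chr7:128062390-128062689, plus strand: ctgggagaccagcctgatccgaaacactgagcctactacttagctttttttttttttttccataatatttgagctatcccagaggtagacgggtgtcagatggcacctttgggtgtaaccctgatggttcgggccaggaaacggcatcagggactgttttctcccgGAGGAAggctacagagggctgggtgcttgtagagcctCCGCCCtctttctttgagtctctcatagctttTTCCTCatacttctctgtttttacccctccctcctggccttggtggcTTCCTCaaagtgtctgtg

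GAGGAA matched 3 times in the Itgam window, 2 times in that of Itgav and once each in those of Itga11 and Itga5. Of 27025 promoters of this length, 28.3% held it at least once. GGGCGG matched 2 times in Itga5 and once each in Itga2, Itgav and Itgam, and 35.9% of promoters held it. The shares for TGANTCA and CCGGAA were 7.9% and 15.2%. The Itgb8 window held none of the 4 motifs. These matches describe the letters in the windows and say nothing of binding.

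Values below are log2 intensities after background correction and quantile normalisation, each gene being read from its brightest probe. Between 20323 and 21330 probes were above background per array. A gene was called when its adjusted p from limma, over 11085 genes, was under 0.05. Vehicle 1 and vehicle 2 were each alone on an array chip, and vehicle 3 shared a chip with all RAPPD arrays. Vehicle 2 held skeletal muscle transcripts, with a summed marker level of 15.68 for 5 measured of 10 listed genes, against 7.23 to 8.30 on the other 6 arrays. The labels do not say whether tumours of a group came from separate donors, and the p-values then reflect only how these 7 samples scatter, which may be technical.

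Of the 29 subunit genes, 3 were called higher (10.3%) and 3 lower (10.3%). Among all genes tested 11% were called higher and 13.1% lower, so the shares of the family lay near the background. The groups did not overlap for 6 subunit genes (20.7%), against 34.7% of all genes. The median difference of the 29 genes was -0.083, against -0.014 over all genes. A limma fit with a term for chip compares within the shared chip, that is vehicle 3 with the 4 RAPPD arrays. With 1 vehicle array there, the fit measures no spread between vehicle tumours. It called 0 subunit genes in either direction, against 3.42% of all genes higher and 5.94% lower. At an unadjusted p under 0.05 this fit had 1 subunit gene higher (Itgb8) and 3 lower (Itga5, Itgb7 and Lama2), named after their values were seen. These are 3.45% and 10.3% of the subunit genes, against 12.7% and 16.2% of all genes.

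**Figure D1:**
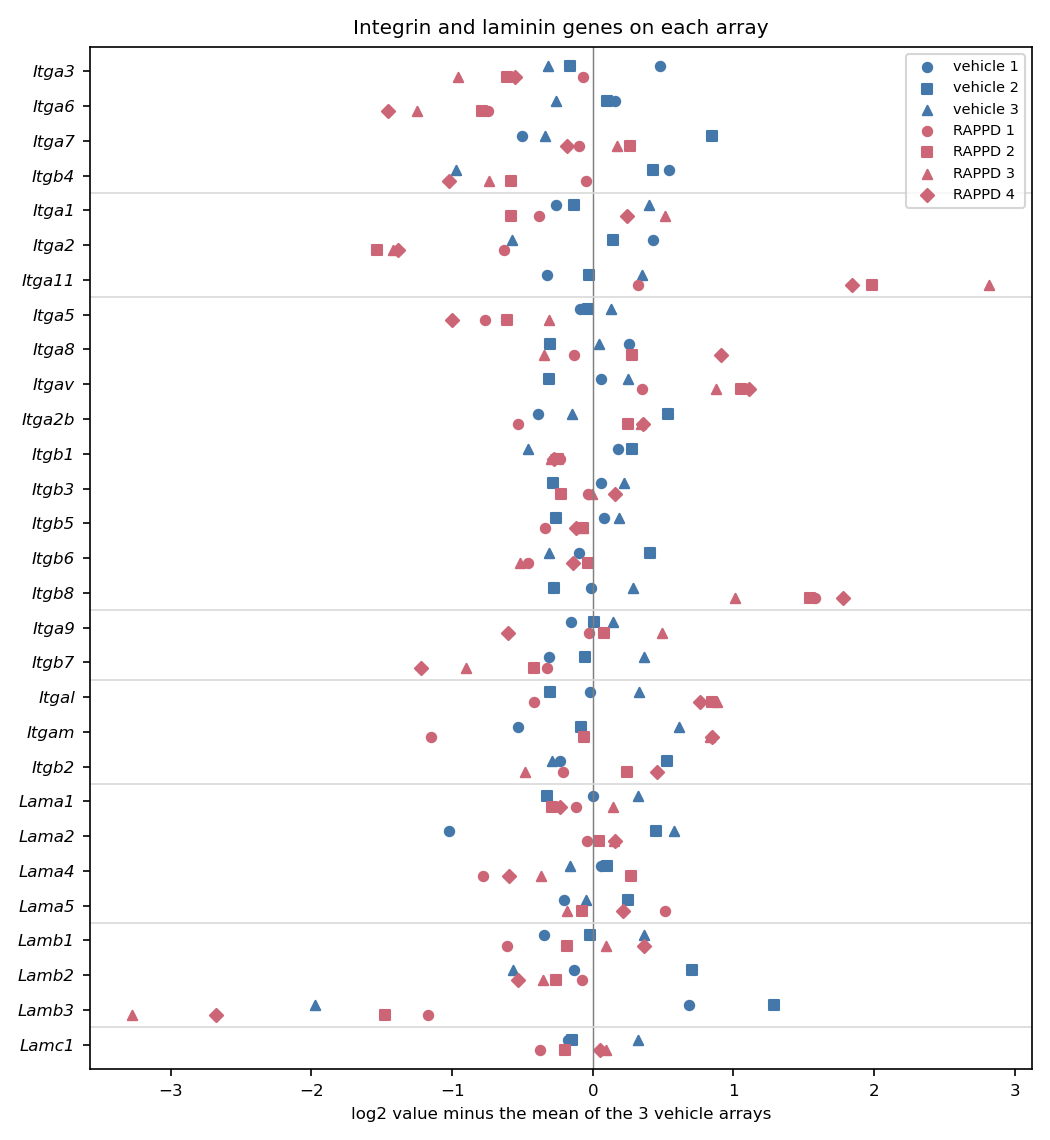
Level of each of the 29 measured genes on each array (log2), minus the mean of the 3 vehicle arrays; blue symbols are vehicle arrays and red symbols RAPPD arrays, and lines separate the role groups. Itgb8 and Itgav lie to the right and Itga2, Itga5 and Itga6 to the left on all RAPPD arrays, while vehicle 3 lies among the RAPPD arrays for Lamb3 and Itgb4.

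Of the 4 laminin-binding integrin subunits, 1 was lower and 0 higher, where 13.1% and 11% of all genes were. Itga6 stood at 8.26, 8.20 and 7.83 on vehicle 1 to 3 and at 7.35, 7.31, 6.85 and 6.64 on RAPPD 1 to 4. All RAPPD arrays were below all vehicle arrays. Itga6 fell by 1.06 ± 0.22 (SE, n = 4 and 3), which is 2.08-fold (adjusted p = 0.00981). The other probes of Itga6 past the filter pointed the same way, with a fall of 1.18 ± 0.27 for the probe annotated to a RefSeq transcript (adjusted p = 0.014 over probes) and -0.78 ± 0.31 for the other (adjusted p = 0.104). Within the shared chip Itga6 lay at -0.79 ± 0.33 (adjusted p = 0.175).

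Its partner Itgb4, the long-tailed beta chain of the hemidesmosome, was not called. Its levels were 11.79, 11.67 and 10.28 in vehicle tumours and 11.20, 10.67, 10.51 and 10.23 in RAPPD tumours, so that vehicle 3 lay within the RAPPD range and the groups overlapped. The difference was -0.60 ± 0.38 (adjusted p = 0.291, 95% interval -1.47 to 0.27), and the other probe gave -0.78 ± 0.40. Without vehicle 3 it was -1.08 (adjusted p = 0.0244), and within the shared chip 0.37.

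Lamb3, the beta chain of the epithelial laminin that binds this receptor, had the widest spread of the family. It read 9.02, 9.63 and 6.37 on vehicle 1 to 3 and 7.17, 6.86, 5.07 and 5.66 on RAPPD 1 to 4. Again vehicle 3 lay inside the RAPPD range. The difference was -2.15 ± 0.79 (adjusted p = 0.0801, 95% interval -3.94 to -0.36), it was -3.14 without vehicle 3 (adjusted p = 0.00896) and -0.18 within the shared chip. Itga3, the alpha chain of another epithelial receptor, which binds the same laminin in cell migration, lay at -0.55 ± 0.26 (adjusted p = 0.162). Itga7, the laminin receptor alpha chain of muscle, differed by 0.039 ± 0.32. Its highest array was vehicle 2 at 7.06, the array with skeletal muscle transcripts, against 5.70 to 6.47 on the others.

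Luminal epithelial markers were lower in part. Of 6 measured of 10 listed luminal genes, 3 were lower and 0 higher, with a median difference of -1.29, and 0 were called within the shared chip. Their summed level was 14.17 to 14.88 on vehicle and 11.98 to 13.60 on RAPPD arrays. The mean of the list was 8.81 on vehicle 3, against 10.11 and 9.68 on the other vehicle arrays and 9.19, 8.26, 7.70 and 8.11 on RAPPD 1 to 4. The luminal markers Epcam and Cldn4 were above background on 0 arrays. Basal markers were sparse: 2 of 6 listed genes (Krt14 and Krt15) were measured and 0 called, at summed levels of 7.74 to 10.43 and 6.75 to 10.77, and Krt5, Krt17 and Krt6a were above background on 0 arrays. The part of epithelial content in the lower Itga6 was not tested.

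**Figure D2:**
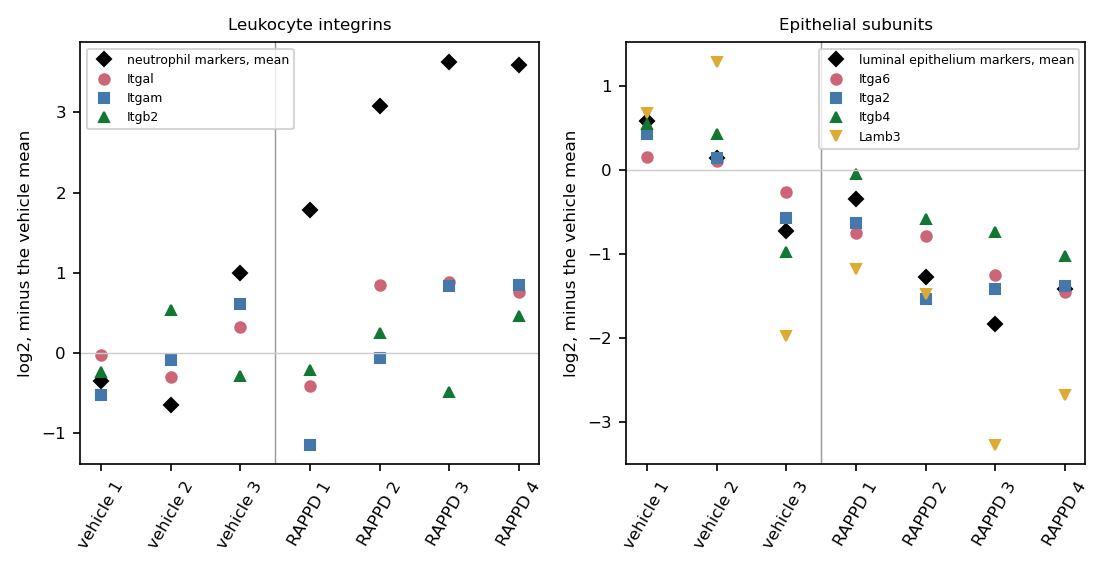
Log2 level on each array minus the vehicle mean, for 3 leukocyte integrins beside the mean of 14 neutrophil markers (left panel) and for 4 epithelial subunits beside the mean of 6 luminal markers (right panel); the vertical line separates vehicle from RAPPD arrays. Neutrophil markers lie at the top of the left panel on all 4 RAPPD arrays while Itgb2 stays near 0, and in the right panel vehicle 3 lies below the other vehicle arrays for every series shown.

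Among the collagen receptors, which share the beta chain Itgb1, 1 of 3 measured alpha chains was higher and 1 lower, where 11% and 13.1% of all genes were. Itga2, the collagen receptor of epithelium and platelets, read 8.62, 8.33 and 7.62 in vehicle tumours and 7.56, 6.65, 6.77 and 6.81 in RAPPD tumours. The groups did not overlap, although vehicle 3 and RAPPD 1 were close. Itga2 fell by 1.24 ± 0.30, which is 2.36-fold (adjusted p = 0.0172). It was not called without vehicle 1 (-1.03, adjusted p = 0.0704) or vehicle 2 (-1.17, adjusted p = 0.0555), and within the shared chip it lay at -0.67 ± 0.37 (adjusted p = 0.286). Itga1, a collagen receptor of mesenchymal cells and its neighbour on the chromosome, read 8.36 to 9.02 in vehicle and 8.04 to 9.14 in RAPPD tumours and differed by -0.054 ± 0.30 (95% interval -0.73 to 0.62). A dim second probe of Itga1, above background on all 3 vehicle and 0 RAPPD arrays, lay at -0.43 ± 0.19 (adjusted p = 0.139 over probes).

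Itga11, the fibrillar collagen receptor of fibroblasts, read 7.41, 7.71 and 8.08 on vehicle 1 to 3 and 8.05, 9.71, 10.55 and 9.57 on RAPPD 1 to 4. RAPPD 1 lay within the vehicle range and the other 3 RAPPD arrays above it. Itga11 rose by 1.74 ± 0.50, which is 3.34-fold (adjusted p = 0.0353). Another probe of the gene rose by 1.92 ± 0.45 (adjusted p = 0.0152 over probes), with groups that did not overlap, and a further one was above background on 1 array. The call was lost on leaving out any single array other than RAPPD 1 (differences of 1.38 to 1.91, adjusted p up to 0.119), and without RAPPD 1 the rise was 2.21. The value within the shared chip was 1.39 ± 0.84 (adjusted p = 0.322).

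Fibroblast transcripts were uneven across the same arrays. Of 9 measured of 10 listed fibroblast genes, 2 were higher and 0 lower, with a median difference of 0.86. Their summed level was 14.38 to 15.59 on vehicle and 15.04 to 16.45 on RAPPD arrays, and the list mean was 11.16 on vehicle 3 and 10.60 on RAPPD 1, against 11.28, 12.01 and 11.35 on RAPPD 2 to 4. Within the shared chip 0 fibroblast genes were called higher and 2 lower, and neither of these had been called over all arrays. Smooth muscle and pericyte genes were called higher in 2, lower in 1 and neither in 6 of 9 cases, at summed levels of 13.71 to 14.65 and 13.93 to 14.65. Endothelial genes were lower in 1 and not called in 9 of 10 cases, at 12.53 to 12.77 and 12.44 to 13.04. The part of fibroblast content in the rise of Itga11 was not tested.

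Receptors for fibronectin and other ligands with the RGD motif moved in different directions. Itga5, the alpha chain of the classical fibronectin receptor, read 12.17, 12.23 and 12.39 in vehicle tumours and 11.50, 11.65, 11.96 and 11.26 in RAPPD tumours. The groups did not overlap. Itga5 fell by 0.67 ± 0.19, which is 1.59-fold (adjusted p = 0.0328), and its other probe lay at -0.57 ± 0.19 (adjusted p = 0.0561 over probes). The call was lost on leaving out any single array other than RAPPD 3 (differences of -0.72 to -0.56, adjusted p 0.0629 to 0.0792). Within the shared chip the difference was -0.80 ± 0.29 (adjusted p = 0.136).

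Itgb8, which pairs with Itgav in a receptor that binds latent TGF-beta and helps to activate it, had the smallest p of the family. It read 4.94, 4.68 and 5.24 on vehicle 1 to 3 and 6.54, 6.50, 5.97 and 6.74 on RAPPD 1 to 4. All RAPPD arrays were higher than all vehicle arrays, and the probe was above background on 1 of 3 vehicle and all 4 RAPPD arrays. Itgb8 rose by 1.48 ± 0.22, which is 2.79-fold, a size limited by the floor of the vehicle arrays (adjusted p = 0.00233). This probe, and the dimmer one that follows, passed the filter through the RAPPD arrays. A dimmer probe of the gene lay at 0.35 ± 0.17 (adjusted p = 0.186 over probes), over 1 log2 unit away, and a further probe was above background on 1 array. The shared chip alone gave 1.19 ± 0.31 (adjusted p = 0.0675).

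Itgav, the partner of Itgb1, Itgb3, Itgb5, Itgb6 and Itgb8, gave probes that disagreed. By the brightest it read 8.79, 8.42 and 8.98 in vehicle tumours and 9.08, 9.78, 9.61 and 9.84 in RAPPD tumours, with no overlap, although RAPPD 1 was close to vehicle 3. By this probe Itgav rose by 0.85 ± 0.23, which is 1.80-fold (adjusted p = 0.0279). The probe annotated to the RefSeq transcript, nearly as bright, read 9.12, 8.78 and 9.26 and then 8.96, 8.87, 9.22 and 8.96, a difference of -0.049 ± 0.18 (adjusted p = 0.875 over probes, 95% interval -0.45 to 0.36). The other 3, like the brightest annotated to cDNA clones, gave 0.71 ± 0.22 (adjusted p = 0.0452), 0.24 ± 0.18 and 0.31 ± 0.33. The mean of the probes differed by 0.41 (adjusted p = 0.131), so the rise of Itgav held for some of its probes and not for others.

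**Figure D3:**
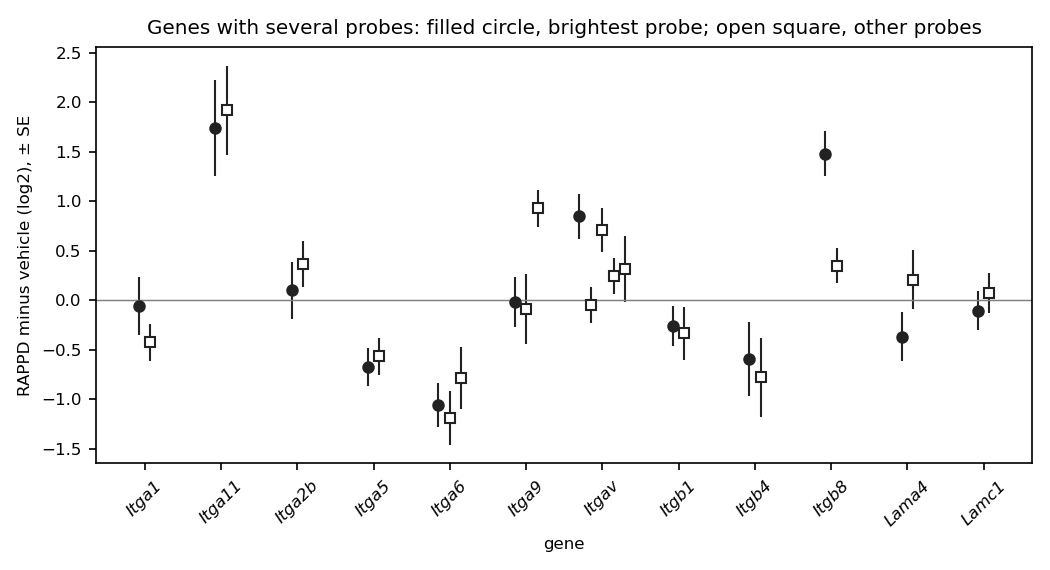
Difference between RAPPD and vehicle tumours (log2, ± SE, n = 4 and 3) for each probe of the 12 genes with several probes past the filter; filled circles are the brightest probe of a gene and open squares its other probes. The probes of Itga6, Itga11 and Itga5 lie close together, while those of Itgav, Itgb8 and Itga9 spread.

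Beta chains other than Itgb8 were not called. Itgb1, the common partner of most alpha chains, read 9.65, 9.75 and 9.01 in vehicle tumours and 9.17 to 9.24 in RAPPD tumours, a difference of -0.26 ± 0.20 (adjusted p = 0.364). Without vehicle 3 it was -0.49 (adjusted p = 0.0384), and within the shared chip 0.19. Itgb5 differed by -0.15 ± 0.17 (95% interval -0.53 to 0.23). Itgb3, which pairs with Itgav in osteoclasts and vessels and with Itga2b in platelets, was above background on 2 of 3 vehicle and 1 of 4 RAPPD arrays, and Itgb6, an epithelial activator of TGF-beta, on 2 and 2. Their differences were -0.029 ± 0.18 and -0.29 ± 0.22. Itga8, the nephronectin receptor of mesenchyme, lay at 0.18 ± 0.30.

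Itga2b, the alpha chain of the platelet fibrinogen receptor, differed by 0.10 ± 0.29, from levels of 5.77 to 6.70 in vehicle and 5.63 to 6.52 in RAPPD tumours. The 6 measured platelet genes of 8 listed, Itga2b among them, held 1 called higher and 0 lower, at summed levels of 8.44 to 8.97 and 8.49 to 9.70. Itga9, a receptor for tenascin and VCAM-1, gave -0.016 ± 0.25 by its brightest probe. A dim probe of Itga9 that was above background on 1 vehicle and 4 RAPPD arrays lay at 0.93 ± 0.19 (adjusted p = 0.00824 over probes). It passed the filter through the RAPPD arrays, and the floor of the vehicle arrays limits the size of its difference. Over all 46 subunit probes, 6 were called higher (13.0%) and 4 lower (8.70%), where 10.9% and 11% of all probes were.

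The leukocyte integrins were not called, in tumours whose neutrophil markers were higher. Itgam read 5.66, 6.10 and 6.80 on vehicle 1 to 3 and 5.04, 6.12, 7.02 and 7.03 on RAPPD 1 to 4. RAPPD 1 was the lowest of all arrays and the groups overlapped. These values rest on a single dim probe, whose intensity on RAPPD 1 was 15.83 against a detection limit of 14.70. The difference was 0.12 ± 0.49 (adjusted p = 0.887), with a 95% interval of -1.004 to 1.24.

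Itgal, the alpha chain of LFA-1 on lymphocytes and myeloid cells, read 6.10, 5.82 and 6.45 in vehicle tumours and 5.70, 6.97, 7.002 and 6.88 in RAPPD tumours. RAPPD 1 was again the lowest array, and the other RAPPD arrays were above all vehicle arrays. The difference was 0.52 ± 0.33 (adjusted p = 0.289), and without RAPPD 1 it was 0.83 (adjusted p = 0.0209). Itgal lay within the shared chip at 0.19 and Itgam at -0.50.

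The common chain Itgb2 was at the edge of detection by its single probe, above background on 1 of 3 vehicle and 2 of 4 RAPPD arrays. It read 4.61, 5.37 and 4.55 in vehicle and 4.64, 5.09, 4.36 and 5.30 in RAPPD tumours, a difference of 0.00039 ± 0.29 (95% interval -0.65 to 0.65). Itgax did not pass the filter. Of its probes 1 was above background on 1 vehicle array and the other on 0 arrays. The 3 measured leukocyte subunits had a median difference of 0.12, and the 26 other subunits one of -0.12. Of these 26, 3 were called higher and 3 lower (11.5% each), near the 11% and 13.1% of all genes. A difference between these sets was not tested.

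Neutrophil markers were called higher in 12 and lower in 0 of 14 measured cases (17 listed), with a median difference of 2.91 and a smallest one of 0.76. Their summed level was 11.82 to 13.71 on vehicle and 14.59 to 16.23 on RAPPD arrays, the lowest RAPPD array being RAPPD 1 and the highest vehicle array vehicle 3. Of these genes 2 were called higher within the shared chip. Their part in the leukocyte subunit values was not tested. Macrophage genes were called higher in 2 and lower in 1 of 10 measured cases, at summed levels of 13.96 to 14.51 and 14.09 to 14.60. Dendritic cell genes (2 measured of 8 listed, 0 called) lay at 6.02 to 6.95 and 6.57 to 6.82, with Flt3, Clec9a and Xcr1 above background on 0 arrays. Of lymphocyte and NK genes 2 of 14 were measured, with 1 called lower, at 8.38 to 9.07 and 8.62 to 9.02, and Cd3e, Cd8a and Ncr1 were above background on 0 arrays.

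Further leukocyte subunits gave no call. The gene Itgb7, partner of Itga4 and Itgae on lymphocytes and mast cells, read 6.68, 6.94 and 7.36 in vehicle tumours and 6.67, 6.58, 6.10 and 5.78 in RAPPD tumours. The groups did not overlap, but the difference of -0.72 ± 0.26 was not called (adjusted p = 0.0789). Of the 6 probes of Itga4, the alpha chain of VLA-4, none was above background on more than 2 arrays. The same held for the 6 probes of Itgae, the E-cadherin receptor of mucosal lymphocytes, and for the 5 of Itgad.

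Of the 8 measured laminin chains 0 were called, where 11% of all genes were called higher and 13.1% lower. By limma 1 chain, Lamb3, had an unadjusted p under 0.05. Lama5, the alpha chain of most adult epithelial and vascular basement membranes, read 10.50, 10.95 and 10.66 in vehicle and 11.22, 10.62, 10.52 and 10.92 in RAPPD tumours. The groups overlapped and the difference was 0.12 ± 0.21 (adjusted p = 0.724, 95% interval -0.36 to 0.59). Lamc1, the gamma chain shared by most laminins, differed by -0.11 ± 0.19 (95% interval -0.54 to 0.33), and its other probe by 0.074 ± 0.20. Lamb2, which joins these in many basement membranes, read 9.88, 10.72 and 9.45 in vehicle and 9.49 to 9.94 in RAPPD tumours (-0.30 ± 0.28, adjusted p = 0.471).

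Of the remaining chains, Lama2 was above background on 2 of 3 vehicle and all 4 RAPPD arrays, and the others were close to background. Lama1, of embryonic basement membranes, Lama2, of muscle and nerve, Lama4, of vessels, and Lamb1 had differences of -0.12, 0.079, -0.37 and -0.083, with adjusted p of 0.314 to 0.893. Lama2 was lowest on vehicle 1 at 4.71 and lay between 5.70 and 6.31 on the other 6 arrays. Of the 4 probes of Lamc3, 1 was above background on 1 array and the others on 0.

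**Figure D4:**
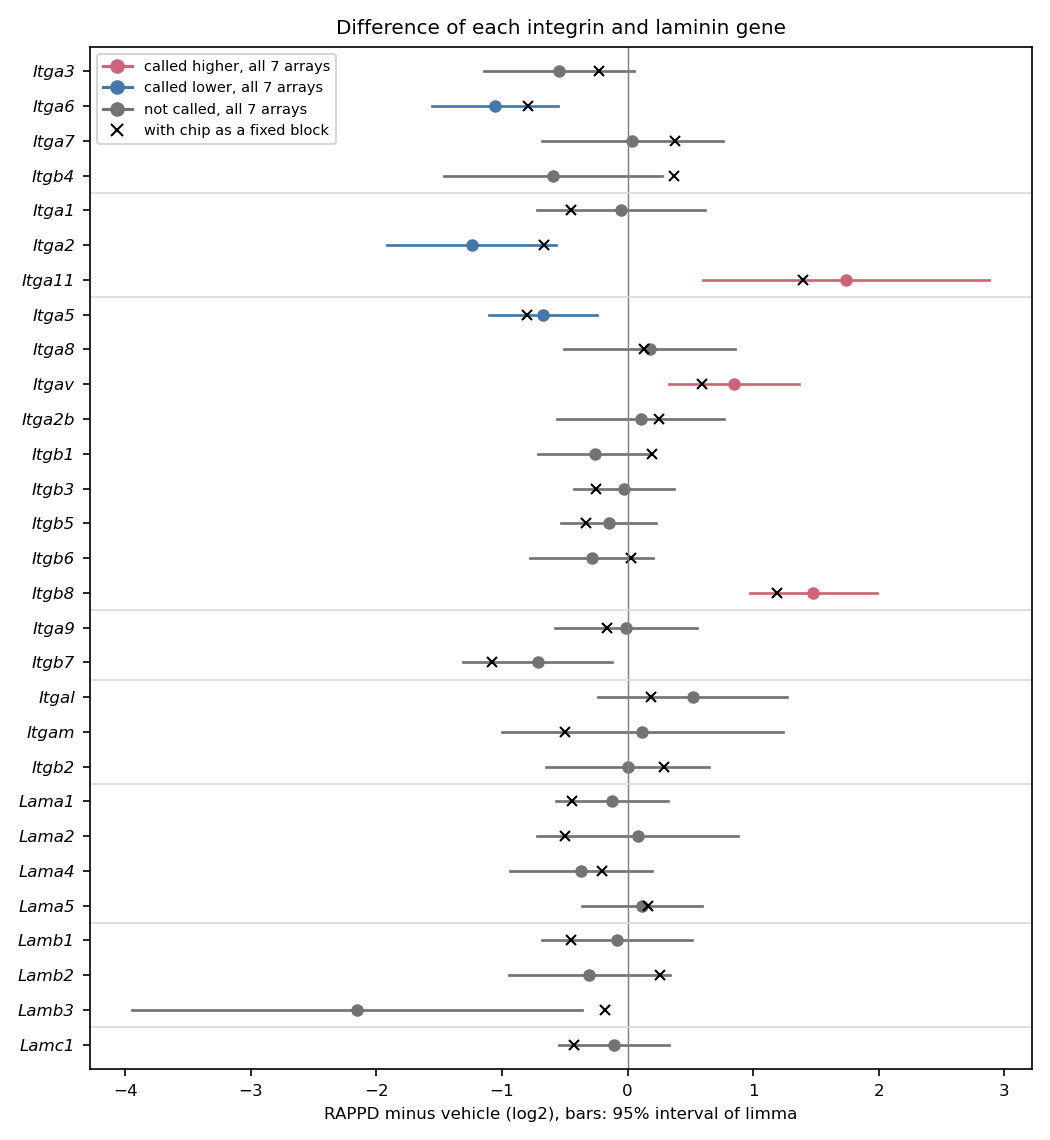
Difference between RAPPD and vehicle tumours for each of the 29 measured genes (log2, points) with the 95% interval of limma (bars) on all 7 arrays, and the difference within the shared chip (crosses). Itgb8 and Itga11 lie farthest to the right, Lamb3 has the widest bar, and the crosses of Lamb3, Itgb4 and Itgb1 lie to the right of their points.

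The genes around these receptors were taken from lists chosen with earlier results of these data known. Calls in these lists are from the fit over all arrays. The fit within the shared chip has 1 vehicle array, so for these lists only differences are given from it. The integrin adhesion complex links beta chain tails to actin. Of its 22 measured genes 1 was higher (4.55%) and 1 lower (4.55%), against 11% and 13.1% of all genes, with a median difference of -0.14. Vinculin (Vcl), which reinforces the link between talin and actin, fell by 0.86 ± 0.22 (adjusted p = 0.0214), and the scaffold Bcar1 (p130Cas) rose by 0.59 ± 0.17 (adjusted p = 0.0341). Vcl and Bcar1 lay at -1.03 and 0.62 within the shared chip. Of 6 hemidesmosome partners, 2 were lower (33.3%) and 0 higher, against 13.1% and 11% of all genes, with a median of -0.64. Plectin (Plec), which joins Itgb4 to keratin filaments, fell by 0.82 ± 0.18 (adjusted p = 0.0118) and the anchoring fibril collagen Col7a1 fell by 0.85 ± 0.22 (adjusted p = 0.0243). Plec and Col7a1 lay at -0.58 and -0.73 within the shared chip.

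Basement membrane partners of laminin were higher in 2 (14.3%) and lower in 1 (7.14%) of 14 measured cases, against 11% and 13.1% of all genes. Col18a1, whose collagen carries the endostatin fragment, fell by 1.60 ± 0.18, from 13.90, 13.74 and 14.32 to 12.31, 12.52, 12.49 and 12.22 (adjusted p = 0.000573). Within the shared chip, against 1 vehicle array, it fell by 1.93. Col4a5 rose by 0.79 ± 0.22 (adjusted p = 0.03), and dystroglycan (Dag1), a laminin receptor that is no integrin, by 0.68 ± 0.20 (adjusted p = 0.0351). The shared chip gave 0.78 for Col4a5 and 0.96 for Dag1.

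Matrix ligands of integrins were higher in 4 (28.6%) and lower in 1 (7.14%) of 14 measured cases, against 11% and 13.1% of all genes. Their median difference was 0.29. The matricellular ligand Ccn2 read 13.29, 13.52 and 12.99 in vehicle and 14.64, 14.90, 15.14 and 14.71 in RAPPD tumours. It rose by 1.58 ± 0.19 (adjusted p = 0.000806), and within the shared chip, against 1 vehicle array, by 1.86. Its relative Ccn1 rose by 1.61 ± 0.28 (adjusted p = 0.00427), and Ltbp1, which tethers latent TGF-beta to the matrix, fell by 0.81 ± 0.19 (adjusted p = 0.0172).

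On the leukocyte side, 1 of 8 measured ligands of leukocyte integrins was higher (12.5%, near the share of all genes) and 0 were lower. This was Icam1, the main ligand of Itgal with Itgb2, which read 8.15, 8.11 and 8.14 on vehicle 1 to 3 and 9.46, 9.77, 10.49 and 9.68 on RAPPD 1 to 4. Icam1 rose by 1.71 ± 0.24, which is 3.28-fold (adjusted p = 0.00166), and lay at 1.70 within the shared chip. Of 10 measured genes tied to leukocyte integrin activation, 4 were higher (40%) and 0 lower, against 11% and 13.1% of all genes. Their median difference was 0.45. The list does not separate genes that raise activation from those that lower it. The cytohesin regulator Cytip rose by 2.87 ± 0.45 (adjusted p = 0.00284) and the leukocyte parvin Parvg by 1.06 ± 0.22 (adjusted p = 0.0103), with vehicle 3 the highest vehicle array for Cytip (8.81 against 7.58 and 7.07). Cytip and Parvg lay at 1.88 and 0.83 within the shared chip, against 1 vehicle array.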

How the data were processed

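RNA of 7 allografted tumours was hybridised to Illumina mouse bead arrays, 1 array per tumour. The authors deposited probe intensities on a linear scale, taken as background-subtracted because part of them were negative, and a second deposited table of log2-like processed values, whose exact transform and centring stay unknown and which served as an alternative. Within each array the tables ranked the probes alike (Spearman rho 1 to 3 digits on all 7 arrays), and the medians of the processed values were 8.021 to 8.025. Tools listed by the submitters' processing notes are BeadStudio and lumi, with no version or role. No genome build is given in the sources used here.

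Intensities were corrected by normexp (background mean 0, SD from the negative intensities of each array), raised by an offset of 16, quantile normalised and taken to log2. Probes above the upper 0.05 tail of the background on at least 3 arrays were kept, and a gene was its brightest probe. RAPPD and vehicle were compared by limma 3.58.1 (R 4.3.3) over all 11085 genes, and over all 21249 probes for single probes, two-sided with Benjamini-Hochberg adjustment. On simulated data for this comparison (11085 genes) the fit called 46% of 2-fold and 85% of 4-fold changes, with 4.38% of calls on unchanged genes. The simulated noise was independent between arrays, with no chip effect, and only a small part of the genes was changed. These rates may therefore not hold for the data. Neither detection p-values nor control probes were used. Each member probe was matched to a RefSeq gene by Entrez identifier (81 of 81). The array number limits the precision. Subunits and lists were chosen with earlier results of these data known, and up to 2 called genes with the smallest p in each direction are named from each list other than the markers. The named markers above background on 0 arrays were chosen after their values were seen. Alternatives covered background, scaling, filter, probe choice, variance model, array weights, chip, threshold and leaving out each array.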

Additional observations from a re-analysis of the deposited data

Results flagged for a closer look

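For 3 of the 29 subunit genes, RAPPD 1 lay far from the other RAPPD arrays, by a ratio of its gap to the range of the 4 arrays. Chance flags about 1 in 20 groups. RAPPD 1 stood at 7.56 for Itga2, 0.75 from the nearest RAPPD array, and was the highest of the 4. It stood at 5.63 for Itga2b and 5.70 for Itgal, 0.78 and 1.18 from the nearest, and was the lowest there. On the same array the neutrophil and fibroblast lists had their lowest RAPPD levels (means of 8.92 and 10.60) and the luminal list its highest (9.19). The part of these cell contents in the subunit values was not tested.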

How the results depend on the processing

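The counts of subunit genes called higher and lower (3 and 3) depended on single arrays and on the chip. With chip as a fixed block they were 0 and 0 (all genes 379 and 659), against 1 and 3 at an unadjusted p under 0.05 (limma; all genes 1403 and 1794). With chip as a random block 1 gene was higher and 3 lower (all genes 948 and 1260). At a threshold of 0.01 they were 1 and 1 (all genes 508 and 733), with array weights 3 were higher and 6 lower (all genes 1682 and 1969), and over all probes 6 probes were higher (all probes 2325 and 2347 in the 2 directions). Leaving out each array gave 1 to 4 subunit genes higher and 1 to 5 lower, and 755 to 1292 and 961 to 1558 over all genes. Itga6 and Itgb8 were called in each fit without 1 array. Without vehicle 1, or without vehicle 2, they were the 2 subunits called, and without RAPPD 2, RAPPD 3 or RAPPD 4 Itgb8 was the 1 called higher. These fits kept the filter set on all 7 arrays, which Itgb8 passed through the RAPPD arrays, so they do not relax that selection. Without vehicle 3, Itgb1, Itgb4 and Lamb3 were also called lower, while Itga5 and Itga11 were not called. Another offset, no background correction, median scaling and cyclic loess kept all 6 calls. The submitters' processed values kept 5 (Itga11 was lost), as did the fits with no filter and with a robust variance trend (Itga11 again), and probe means lost that of Itgav. Requiring detection on all arrays left 20 subunit genes, without Itgb8. Of 542 differences of single subunits under alternatives, 31 lost and 7 gained a call, and 0 called differences turned their sign. Among the rest 50, of 18 genes called in neither fit, changed sign. No paired analysis was possible because the replicate numbers were given in accession order and link no tumours. Itgb2, Itgb3, Itgb6 and most dim laminin chains lie at the detection limit, where a difference would be compressed. The single probe of Itgam lies close to that limit on RAPPD 1.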
